A study of Mus musculus with 4 samples.

Results

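The comparison set the latest stage of a time course of the fetal mouse testis against the earliest. Whole gonads of wild-type male embryos of the mouse line MCH at embryonic day 15.5 (E15.5) were set against those at embryonic day 12.5 (E12.5). Its members are 2 of the 4 samples of the series, chosen by their stage labels, with 2 one-colour Agilent arrays each, so that 4 of the 8 arrays were compared. The other samples, E13.5 and E14.5, also with 2 arrays each, served to ask whether a gene's level lay between the end stages. Genotype, sex and mouse line were the same in all groups, and the labels name no agent. The series text calls the arrays of a stage biological duplicates, and how many embryos gave each RNA is not given in the sources used here. P-values therefore measure only the spread between these duplicates. Because the gonad was taken whole, fewer cells of a type and less RNA per cell cannot be told apart.

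Over these days the male gonad becomes a working fetal testis. Sertoli cells enclose the germ cells in cords, fetal Leydig cells between the cords make androgens and the descent hormone Insl3, and contractile cells surround the cords. Male germ cells leave the cell cycle, lose the pluripotency programme of primordial germ cells, and take up a programme that includes new DNA methylation and the piRNA pathway, which silences transposons. In the embryo's blood, primitive red cells with embryonic globins give way to red cells made in the liver.

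Signals were log2 values scaled so that 0 is the array's 75th percentile, and a level below refers to this scale. Well above background were 69.8% and 64.5% of 41174 probes on the E12.5 arrays and 67.4% and 60.3% on the E15.5 arrays. The E12.5 arrays were on slides 1 and 2 and the E15.5 arrays on slide 3, scanned in another session and read with another version of the scanner software, so slide and stage cannot be told apart in the direct difference. The change was therefore also split into 3 daily steps. E13.5 minus E12.5 lies within slides 1 and 2, and E15.5 minus E14.5 lies within slide 3. The sum of these 2 is called the within-slide sum and leaves out the step across slides, E14.5 minus E13.5. The median size of the change over all genes was 0.27 in the first step, 0.47 in the step across slides and 0.20 in the last. Labelled control transcripts added to the RNA varied between arrays: 7 of them averaged 2.76 and 3.25 on the E12.5 arrays and 2.51 and 0.83 on the E15.5 arrays, and their part in the results was not tested. All markers on the array for Sertoli (6 of 6), fetal Leydig (5 of 5), germ (5 of 5), interstitial (4 of 4), endothelial (4 of 4), macrophage (3 of 3) and erythroid (4 of 4) cells were well above background on all 8 arrays. Of 3 sympathetic markers, 0 were above background on all 8, and of 2 adrenal cortex markers 1 was.

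A large share of the measured genes differed between the end stages. limma's moderated test with Benjamini-Hochberg adjustment called 7661 of 21986 genes (34.8%) at an adjusted p below 0.05. Of these, 3925 were higher at E15.5 (17.9%) and 3736 were lower (17%). The counts of called genes in the lists below stand beside these shares, and no list was tested against them. A change of log2 1 or more was measured for 5723 of the called genes, and of log2 2 or more for 2198, of which 1409 were higher and 789 lower. The E15.5 arrays did not overlap the E12.5 arrays for 16239 genes (73.9%). Both middle stage means lay between the end stages for 4545 of the called genes (59.3%), against 7616 of all genes tested (34.6%). A wider gap between the end stages holds the middle means more readily, so this contrast is no test of the calls. The median change of all genes was log2 -0.06.

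A second probe for the same gene offered a check on 1636 of the called genes. All further probes agreed, meaning the same sign and at least 0.5 of the change, for 890, and at least 1 further probe had the opposite sign for 380. Agreement of all further probes together with in-between middle stages was met by 566 genes (2.57% of all tested, and 11.2% of the 5052 with a further probe), 309 higher and 257 lower. By the within-slide sum limma called 623 genes (2.83%), 543 higher (2.47%) and 80 lower (0.364%), and 592 of them were also called in the direct difference with the same sign. That count fell to 0 when any 1 array of E12.5, E13.5 or E15.5 was left out, where between 2116 and 3305 genes had an unadjusted p below 0.05, against 3757 with all arrays. It was 242 and 230 without E14.5 array 1 and array 2. The direct difference called 5271 and 4661 genes without E12.5 array 1 and array 2, and 4974 and 3464 without E15.5 array 1 and array 2.

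Genes of the fetal Leydig cell, the androgen source of the fetal testis, rose together. Of 22 tested genes of the fetal Leydig cell and steroidogenesis list, 13 rose, 0 fell and 9 were not called. Their median change was log2 1.64, against -0.06 over all genes, and their median within-slide sum was 1.56. Cyp11a1, which cuts the side chain of cholesterol to make pregnenolone, stood at 0.86 and 0.92 on the E12.5 arrays and at 4.55 and 4.28 on the E15.5 arrays. Both late arrays lay far above both early arrays, and the mean of E13.5 was already 3.73. The change was log2 3.53 ± 0.25 (SE, n = 2 arrays per stage), or 11.5-fold, with adjusted p = 0.000257 by limma, and a further probe gave 3.84. Of this change 0.32 fell in the step across slides.

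Insl3, the Leydig hormone that guides testis descent, measured 3.09 and 2.60 at E12.5 and 5.80 and 5.36 at E15.5, a rise of log2 2.74 ± 0.30 (limma adjusted p = 0.00126). Its E13.5 mean of 5.48 and E14.5 mean of 5.45 were close to the E15.5 level. Lhcgr, the receptor for luteinizing hormone, was not well above background on either E12.5 array (means -7.16 at E12.5 and -2.65 at E15.5) and its E15.5 level was at least 10.3-fold higher. Agt, which encodes angiotensinogen, rose by log2 2.72 ± 0.25 but peaked before the end, with means of 1.89 at E14.5 and 1.04 at E15.5. The other markers of these cells rose too: Cyp17a1, which makes androstenedione, by log2 2.54 ± 0.26, Star, which carries cholesterol into mitochondria, by 2.49 ± 0.22, and Hsd3b1, the next enzyme of the pathway, by 1.79 ± 0.22. Mrap and Akr1b7, which the fetal adrenal cortex also uses, rose by log2 2.29 ± 0.24 and 1.49 ± 0.19. Of the adrenal markers, Cyp21a1 was above background on 1 E12.5 array and 0 E15.5 arrays, and Mc2r, the receptor for corticotropin, was above background on all 8 arrays and not called (log2 -0.16). The part of adrenal cells in these values was not tested.

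Enzymes that make cholesterol, the substrate of steroids, rose beside them. Of 23 genes of cholesterol synthesis and uptake, 13 rose, 2 fell and 8 were not called, with a median of log2 1.18 and a median within-slide sum of 0.92. Cyp51, a lanosterol demethylase, measured -0.46 and -0.99 at E12.5 and 1.47 and 1.502 at E15.5. The arrays of the stages were well apart, the change was log2 2.21 ± 0.23 (limma adjusted p = 0.00102), and both further probes agreed. Dhcr7, which makes cholesterol in the last step, went from 2.68 and 2.92 to 4.68 and 5.23, a rise of log2 2.15 ± 0.28. Fdps and Insig1, which make farnesyl pyrophosphate and sense sterols, rose by log2 1.67 ± 0.29 and 1.81 ± 0.38. Against the list ran the tested probes of the lipid transfer gene Stard4 at log2 -1.497 ± 0.23 and the synthesis gene Hsd17b7 at -0.76 ± 0.24. Their further probes had the opposite sign, at log2 0.835 and 0.508 for Stard4 and 1.383 for Hsd17b7. With a gene's probes averaged, Stard4 was not called (adjusted p = 0.87) and Hsd17b7 had the other sign (0.31). The call of Hsd17b7 was lost in 15 alternatives, and Insig1 was not called in the 3 fits without E12.5 array 2, E15.5 array 1 or E15.5 array 2.

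**Figure D1:**
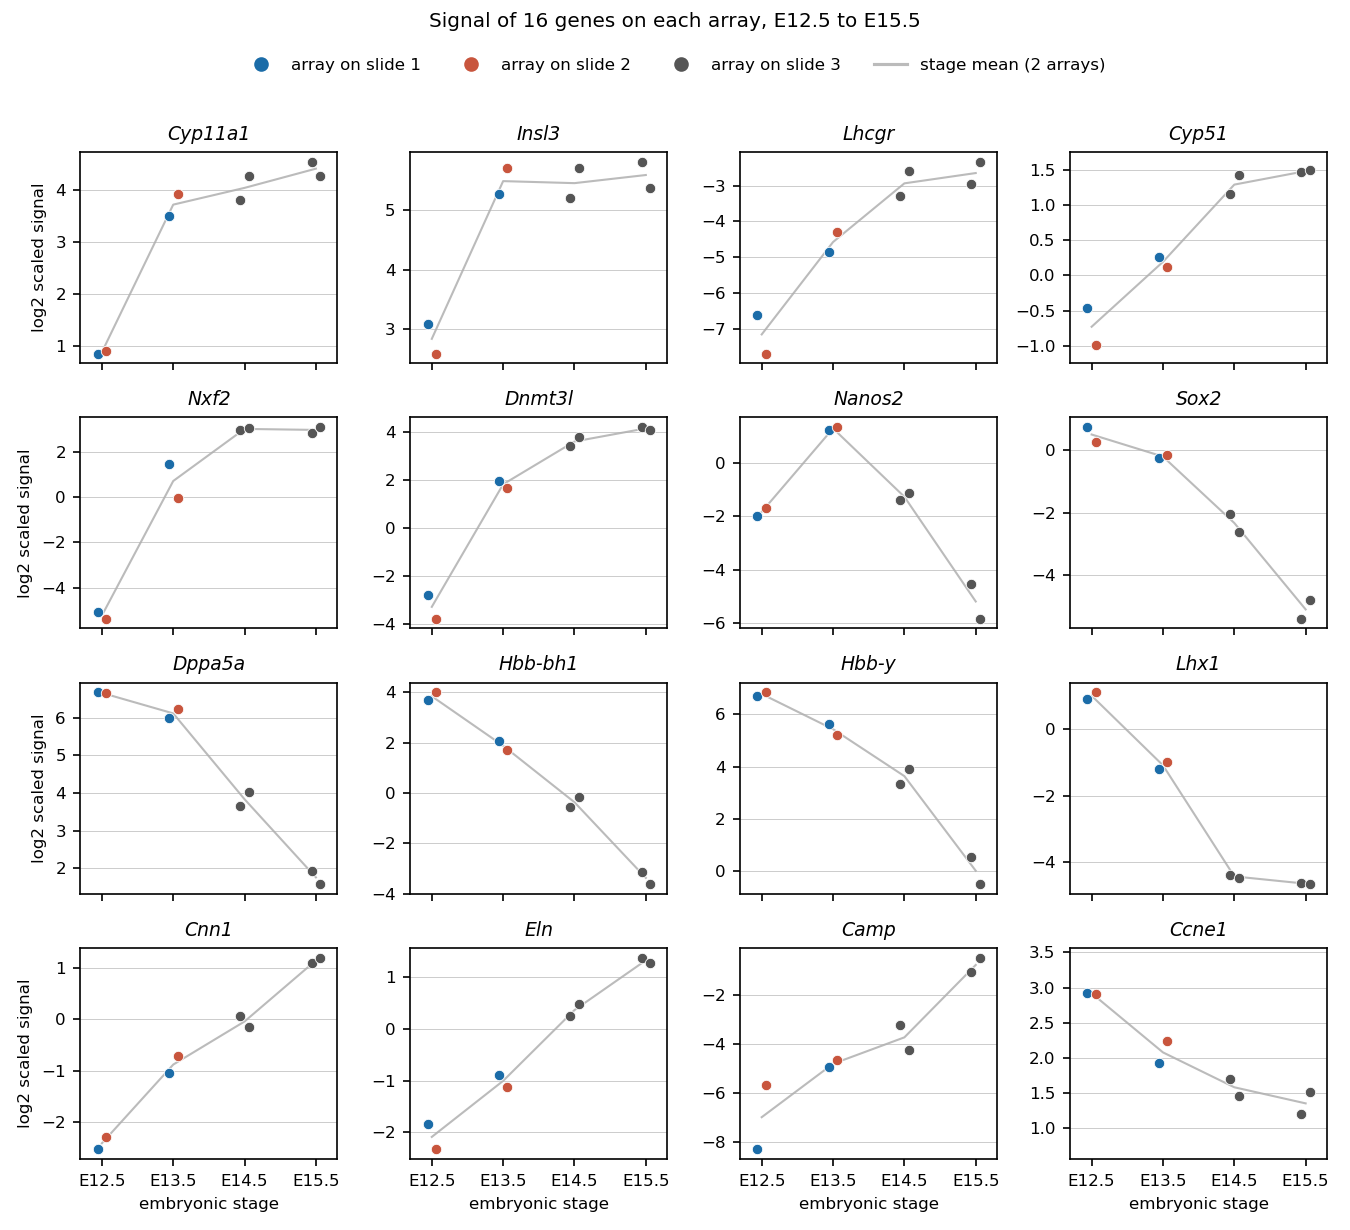
Signal of 16 genes on each array (log2, 0 is the array's 75th percentile) against embryonic stage, with points coloured by slide and a line through the stage means of 2 arrays. Cyp11a1 and Insl3 rise within the first day and then level off, the means of Hbb-bh1 and Hbb-y are lower at every step, and Nanos2 peaks at E13.5 before it drops below its E12.5 level.

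Male germ cell genes had the highest median change of the lists examined. Among 17 tested genes on the list for male germ cells and piRNAs, 13 were called higher, 2 lower and 2 neither way. The median was log2 2.80, and the median within-slide sum 1.36. Nxf2, an X-linked RNA export factor of germ cells, measured -5.09 and -5.38 at E12.5 and 2.84 and 3.098 at E15.5, a rise of log2 8.21 ± 0.45 (limma adjusted p = 0.000139). Dnmt3l, the cofactor of new DNA methylation in germ cells, went from -2.79 and -3.79 to 4.22 and 4.11, a rise of log2 7.46 ± 0.34 (limma adjusted p = 9.94e-05). Most of both rises came in the first step within slides 1 and 2, 5.95 for Nxf2 and 5.12 for Dnmt3l. Neither gene had a further probe, and the E14.5 mean of Nxf2, 3.02, lay just above its E15.5 mean of 2.97.

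Further members act in piRNA production. Henmt1, which methylates the ends of piRNAs, rose by log2 5.24 ± 0.36 and Piwil1, an Argonaute protein that binds them, by 3.74 ± 0.45, each above background on only 1 of the E12.5 arrays. Fkbp6, a co-chaperone of piRNA loading, rose by log2 3.60 ± 0.43, with 2.44 by its further probe. The germ cell markers Mael, a piRNA pathway protein, and Dnd1, an RNA-binding protein, rose by log2 2.89 ± 0.21 and 1.497 ± 0.21. Nanos2, which holds germ cells to the male fate, ran against the list. It stood at -1.98 and -1.68 at E12.5, at a mean of 1.30 at E13.5, and at -4.55 and -5.85 at E15.5, so its lowest values came last after a peak in between, and only 1 E15.5 array had it above background. The end-to-end change was log2 -3.37 ± 0.41. Dazl, a translational regulator of germ cells, fell by log2 1.59 ± 0.24 with both middle stages in between.

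Genes of pluripotency and of primordial germ cells fell over the same span. Of 20 tested, 1 rose, 14 fell and 5 were not called, with a median of log2 -2.06 and a median within-slide sum of -0.86. Sox2, a core pluripotency factor, measured 0.74 and 0.27 at E12.5 and -5.41 and -4.80 at E15.5, where 1 of 2 arrays had it above background. The change was log2 -5.61 ± 0.31 (limma adjusted p = 0.000149), and -2.77 of it fell within slide 3. Dppa5a, an RNA-binding protein of pluripotent cells, fell from 6.67 and 6.65 to 1.94 and 1.58, by log2 4.90 ± 0.23, and its further probe gave -4.46. Dppa3, which protects DNA methylation in the early embryo, changed by log2 -4.38 ± 0.23 after a higher E13.5 mean of 5.74. The membrane protein gene Ifitm3 changed by log2 -4.51 ± 1.24 on E12.5 arrays that differed widely, at 3.72 and 6.98. Its E13.5 arrays, on the same slides, stood at 3.70 and 6.72. Of the Ifitm3 change -4.17 lay in the step across slides, and the within-slide sum was -0.34. Dppa4 rose by log2 1.18 ± 0.28, and Pou5f1, which encodes the pluripotency factor Oct4, fell by log2 1.06 ± 0.26. For Pou5f1 the step across slides was -1.10 and the within-slide sum 0.05. The calls of Ifitm3, Dppa4 and Pou5f1 were lost in 7, 3 and 3 alternatives.

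Nodal signalling, a pathway that keeps embryonic cells pluripotent and is active in early male germ cells, had 6 genes that fell, 3 that rose and 2 not called among 11, with a median of log2 -1.38 and a median within-slide sum of -0.40. Lefty1, a secreted inhibitor and target of the pathway, measured 2.06 and 1.53 at E12.5 and -4.28 and -2.75 at E15.5. Its change of log2 -5.31 ± 0.56 held -4.24 in the step across slides and 0.97 in the last step. The receptor gene Acvr2b and the co-receptor gene Tdgf1 changed by log2 -2.59 ± 0.60 and -2.43 ± 0.72. Furin, a protease that matures Nodal, changed by log2 1.58 ± 0.30. Acvr2a and Smad2 changed by 0.74 ± 0.22 and 0.71 ± 0.21. Of these changes 0.62 and 0.72 lay in the step across slides, and the further probe of Acvr2a gave -0.048. Those 5 calls were each lost in at least 1 alternative, with adjusted p up to 0.207.

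Meiosis genes, which female germ cells use at these stages and males only after birth, went both ways. Of 17 tested, 7 rose, 2 fell and 8 were not called, with a median of log2 0.75. Tex15, a germ cell protein of recombination and transposon silencing, rose by log2 3.21 ± 0.24. Tex12, of the synaptonemal complex, rose by log2 2.48 ± 0.17. Spo11, which makes the double-strand breaks of meiosis, went from -3.94 and -3.86 to -1.55 and -1.72, a rise of log2 2.27 ± 0.19 that its further probe did not share at 0.5 of the size. Sohlh2, a transcription factor of early germ cell differentiation, fell from 1.04 and 1.15 to -2.68 and -2.77, by log2 3.82 ± 0.18, with -2.48 in the step across slides. Syce2, another protein of the synaptonemal complex, fell by log2 1.29 ± 0.17.

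**Figure D2:**
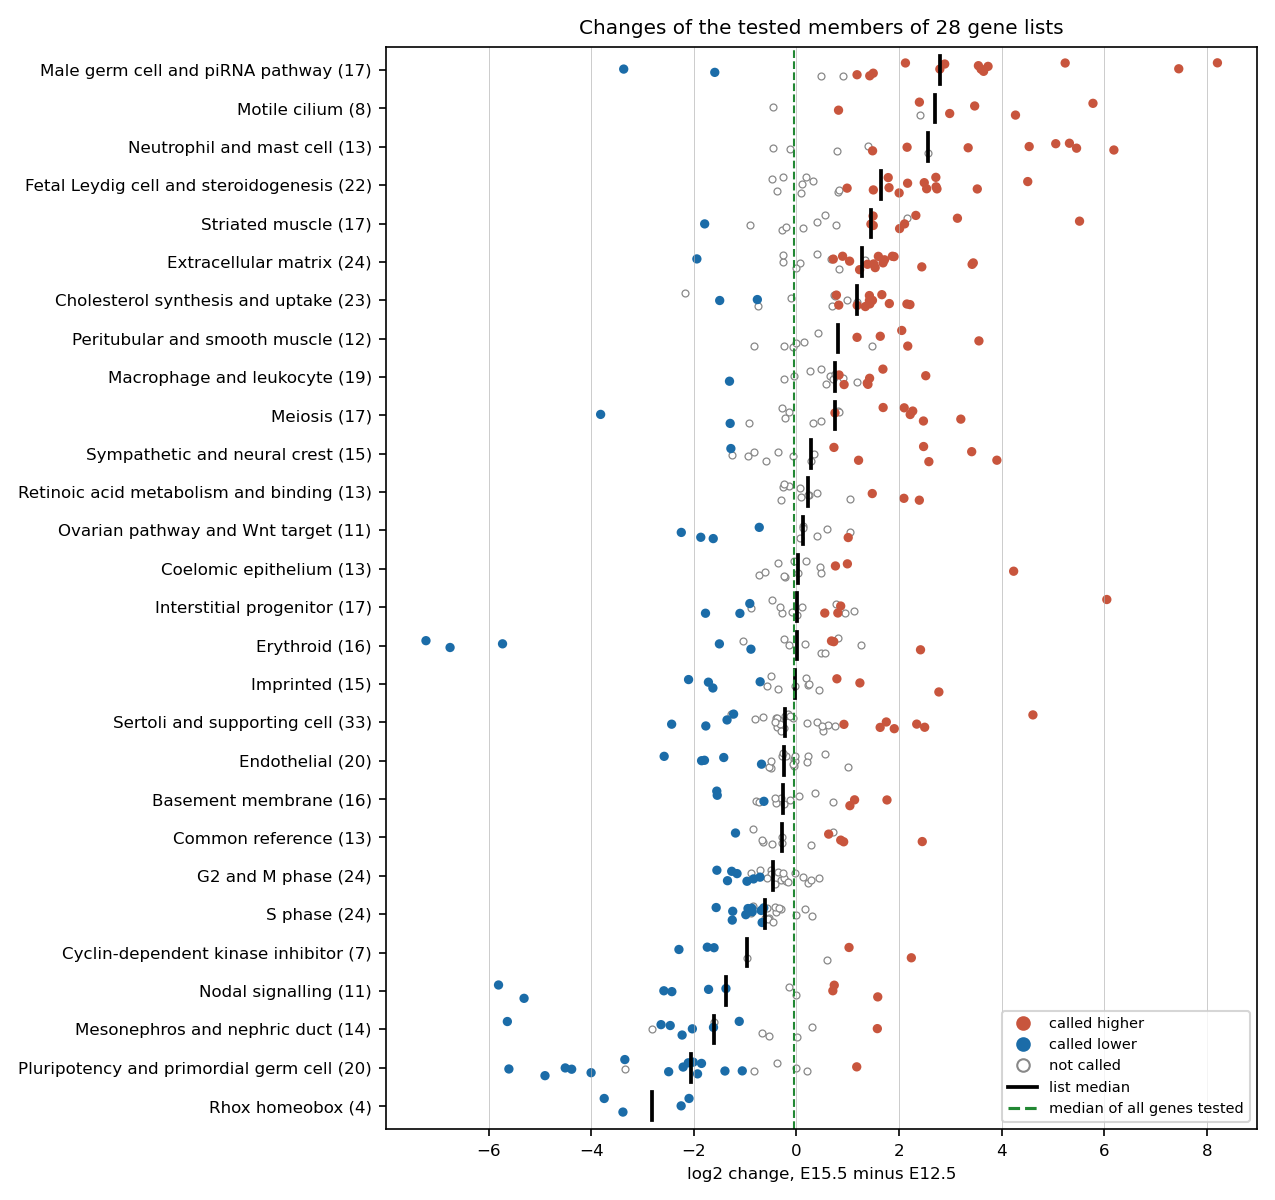
Change from E12.5 to E15.5 (log2) of each tested member of 28 gene lists, with filled points for called genes, open points for genes not called, a black bar at the list median and a dashed line at the median of all genes tested. Male germ cell, motile cilium and neutrophil lists have medians above 2, and the pluripotency and Rhox lists have medians below -2, while the erythroid list has a median near 0 with 3 globins far to the left.

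Embryonic globins fell steeply and led the falls in the within-slide sum. Hbb-bh1, a beta-like globin of primitive red cells, measured 3.70 and 4.004 at E12.5 and -3.12 and -3.63 at E15.5, with means of 1.88 and -0.37 at E13.5 and E14.5. It fell by log2 7.22 ± 0.27, or 150-fold (limma adjusted p = 6.4e-05), and its further probe gave -6.73. Hbb-y, its neighbour in the same cluster, went from 6.71 and 6.83 to 0.53 and -0.50, a fall by log2 6.75 ± 0.38. Hba-x, the alpha-like embryonic globin, fell by log2 5.73 ± 0.24. The means of Hbb-bh1, Hbb-y and Hba-x were lower after each daily step, and their within-slide sums were -4.98, -4.96 and -3.94.

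The erythroid list as a whole went both ways. Of 16 tested members, 3 rose, 5 fell, among them Hbb-bh1, Hbb-y and Hba-x, and 8 were not called. Over all genes 17.9% rose and 17% fell, so the share that rose was near that of all genes. The blood group gene Rhd rose by log2 2.42 ± 0.36, from -0.33 and -0.15 to 1.91 and 2.45, with no overlap of the arrays. Alas2, the first enzyme of red cell haem synthesis, and Ank1, a protein of the red cell skeleton, rose by log2 0.73 ± 0.22 and 0.68 ± 0.18, and Slc4a1, the red cell anion exchanger, fell by log2 0.89 ± 0.21. The calls of Alas2, Ank1 and Slc4a1 were lost in 11, 9 and 3 of the alternatives, with adjusted p up to 0.19.

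Promoter sequences are shown for genes of the Leydig and erythroid lists, since the members of 1 rose together and those of the other went both ways, as the 250 bases before the RefSeq start (build GRCm38.p6) with 2 motifs searched on both strands. AAGGTCA is bound by Nr5a1, the regulator of steroid-making cells, and occurs in 4.08% of 32851 such windows. AGATAA is bound by Gata1, the regulator of red cells, and occurs in 9.99%. Of the 21 called genes of both lists 15 had a window, of which 1 held AAGGTCA and 4 held AGATAA: Hsd3b1 and Hsd3b6 of the Leydig list and Rhd and Alas2 of the erythroid list. Capitals mark a match on either strand, and no match says only that these letters are not in the window. Insl3, which rose, holds neither and lies on the plus strand at chr8:71689002-71689251. Hbb-y, which fell, holds neither and lies on the minus strand at chr7:103853208-103853457. Rhd, which rose, holds 1 AGATAA on the plus strand at chr4:134864286-134864535. Alas2 holds AAGGTCA and, as its reverse complement, AGATAA, on the plus strand at chrX:150547167-150547416. Both windows of Cyp11a1 and that of Lhcgr held neither motif.
Insl3: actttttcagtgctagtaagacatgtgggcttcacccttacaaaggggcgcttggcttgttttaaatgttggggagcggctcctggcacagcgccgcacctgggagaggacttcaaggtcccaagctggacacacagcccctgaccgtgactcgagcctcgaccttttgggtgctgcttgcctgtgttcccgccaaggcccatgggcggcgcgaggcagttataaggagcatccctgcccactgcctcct
Hbb-y: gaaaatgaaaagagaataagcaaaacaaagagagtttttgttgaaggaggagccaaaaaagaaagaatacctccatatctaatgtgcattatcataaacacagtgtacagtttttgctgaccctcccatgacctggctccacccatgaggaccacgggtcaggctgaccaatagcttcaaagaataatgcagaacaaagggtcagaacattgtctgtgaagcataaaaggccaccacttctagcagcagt
Rhd: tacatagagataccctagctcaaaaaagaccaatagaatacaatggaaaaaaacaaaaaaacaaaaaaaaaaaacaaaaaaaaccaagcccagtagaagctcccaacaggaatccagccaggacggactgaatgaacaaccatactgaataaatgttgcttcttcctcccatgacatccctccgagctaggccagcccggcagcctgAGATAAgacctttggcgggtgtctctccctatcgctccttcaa
Alas2: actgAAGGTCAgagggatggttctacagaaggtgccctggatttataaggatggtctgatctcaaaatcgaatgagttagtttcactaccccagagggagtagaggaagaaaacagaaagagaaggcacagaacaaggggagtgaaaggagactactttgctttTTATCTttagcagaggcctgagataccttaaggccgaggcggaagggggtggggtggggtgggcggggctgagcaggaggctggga

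Sertoli cell genes did not move as a group. Of 33 tested, 7 rose, 4 fell and 22 were not called, beside 17.9% of all genes that rose and 17% that fell. The median was log2 -0.23, and 0.02 with quantile scaling. Of the 6 fixed Sertoli markers 0 were called, among them Sox9, the factor that directs these cells, at log2 -0.23 ± 0.50, and Amh, the hormone that removes the female duct, at -0.41 ± 0.20. Hsd17b1, an enzyme that activates estrogens and androgens, rose most, from -2.67 and -2.55 to 1.94 and 2.06. Its arrays agreed closely within each stage, and the change was log2 4.61 ± 0.18 (limma adjusted p = 6.81e-05). Sostdc1, a secreted inhibitor of BMP and Wnt signals, rose by log2 2.50 ± 0.27, and Fshr, the receptor for follicle-stimulating hormone, by 2.35 ± 0.28 with 1 of 2 E12.5 arrays above background. Fgf9, the growth factor that holds the gonad to the male path, fell by log2 2.43 ± 0.18, with both middle stages in between. Cyp26b1, which destroys retinoic acid, fell by log2 1.77 ± 0.17, Cldn11, of Sertoli tight junctions, by 1.35 ± 0.26, and Amhr2, the receptor for Amh, by 1.23 ± 0.23. For these last 3 genes -1.28, -1.20 and -1.09 of the change lay in the step across slides, and Cldn11 was not called without E15.5 array 2 (adjusted p = 0.0646).

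Contractile and matrix genes rose. Of 12 genes of peritubular and smooth muscle cells, 5 rose, 0 fell and 7 were not called, with a median of log2 0.80 and a median within-slide sum of 0.78. Cnn1, a smooth muscle calponin, went from -2.53 and -2.29 to 1.09 and 1.20, a rise of log2 3.56 ± 0.21 (limma adjusted p = 0.000161), with the stage means higher after every daily step. The myosin gene Myh11, the smooth muscle actin gene Acta2 and the thin filament gene Lmod1 rose by log2 2.17 ± 0.26, 2.05 ± 0.19 and 1.63 ± 0.21. Among 24 extracellular matrix genes 15 rose, 1 fell and 8 were not called, with a median of 1.28 and a median within-slide sum of 0.57. Ogn, a small proteoglycan, rose by log2 3.45 ± 0.25 and Fbln5, an organiser of elastic fibres, by 2.44 ± 0.24. Eln, which encodes elastin, went from -1.85 and -2.34 to 1.38 and 1.28, a rise of log2 3.42 ± 0.23. Fbln2 ran the other way at log2 -1.94 ± 0.36. Of 16 basement membrane genes 3 rose, 3 fell and 10 were not called, with a median of log2 -0.27 and a median within-slide sum of -0.32. These shares were near the 17.9% of all genes that rose and the 17% that fell. Lama2, a laminin of muscle and connective tissue, rose by log2 1.76 ± 0.29, whereas Col18a1, the precursor of endostatin, fell by 1.55 ± 0.22. Col4a6, Lama4 and Col4a3 changed by log2 -1.54 ± 0.17, -0.63 ± 0.18 and 1.13 ± 0.34. Each call was lost in an alternative (limma adjusted p up to 0.477), and the further probe of Col4a6 had the opposite sign (1.22).

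Striated muscle genes, which mark a cell type that is no part of the gonad, rose as well. Of 17 tested, 8 rose, 1 fell and 8 were not called, with a median of log2 1.45 and a median within-slide sum of 0.69. Tnnc2, a fast muscle troponin, went from -3.31 and -3.61 to 1.75 and 2.36, by log2 5.52 ± 0.35, of which 3.88 lay in the step across slides. The slow myosin gene Myh7, the cardiac actin gene Actc1 and the muscle regulator gene Myog rose by log2 3.14 ± 0.29, 2.33 ± 0.27 and 2.11 ± 0.26. Tnnc1, a slow and cardiac troponin, fell by log2 1.79 ± 0.26. Myh2, an adult fast myosin, at E15.5 was at least 93.6-fold higher (means -6.70 and 0.54), and its 3 probes ranged from 4.13 to 7.76 in log2 change. The defining markers Actc1, Acta1 and Myog were well above background on all 8 arrays, and the part of muscle in the rise of contractile and matrix genes was not tested.

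Neutrophil granule genes rose, and genes of the macrophage and leukocyte list rose in part, with most of them not called. Of 18 genes of neutrophils and mast cells on the array, 13 passed the background filter and were tested. Of these 8 rose, 5 missed the threshold and 0 fell, with a median of log2 2.57 and a median within-slide sum of 2.97. Camp, S100a8 and Ngp passed the filter only through later stages, so they could hardly be called lower. Both medians rest partly on such E12.5 values below background. Camp, an antimicrobial peptide of neutrophil granules, measured -8.29 and -5.67 at E12.5, below background, and -1.09 and -0.50 at E15.5, and was at least 33.9-fold higher. The granule proteins S100a8 and Ngp were at least 23.8-fold and 6.92-fold higher, and S100a9 rose by log2 5.32 ± 0.96 on E12.5 arrays at -4.45 and -1.64. Of 19 macrophage and leukocyte genes 7 rose, 1 fell and 11 were not called, beside 17.9% of all genes that rose and 17% that fell. Their median was log2 0.76 and their median within-slide sum 0.71. The macrophage markers C1qa and C1qb, of complement, and Tyrobp, a signalling adaptor, were among those not called, with changes of log2 0.57, -0.24 and 0.72. The lysozyme genes Lyz1 and Lyz2 rose by log2 2.52 ± 0.20 and 1.69 ± 0.23, and the leukocyte actin regulator gene Coro1a by 1.39 ± 0.21. Adgre1, a macrophage surface receptor, changed by log2 1.43 ± 0.41. The chemokine receptor gene Cx3cr1 changed by -1.31 ± 0.30, with -1.68 in the step across slides. Those calls were lost in 6 and 4 alternatives (adjusted p up to 0.185 and 0.0999).

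Most endothelial genes were not called, and 7 of 14 nephric duct genes fell. Of 20 endothelial genes 0 rose, 5 fell and 15 were not called, with a median of log2 -0.24, and 17% of all genes fell. The markers Pecam1 and Cdh5, adhesion proteins of the vessel wall, were not called, with changes of log2 -0.20 and -0.29. Kdr, the main receptor for VEGF, went from 1.89 and 2.11 to -0.45 and -0.70, a fall by log2 2.58 ± 0.19 (limma adjusted p = 0.000294). The tight junction gene Cldn5 and the receptor gene Tie1 fell by log2 1.85 ± 0.18 and 1.42 ± 0.21. Erg, an endothelial transcription factor, was not above background at E15.5 and at least 1.51-fold lower. Its step across slides was -2.06 and its last step 0.76, and its call was lost under normexp and without E15.5 array 2. Of 14 genes of the mesonephros and nephric duct 1 rose, 7 fell and 6 were not called, with a median of log2 -1.61 and a median within-slide sum of -0.69. Lhx1, a regulator of the nephric duct, fell from 0.90 and 1.10 to -4.62 and -4.66, by log2 5.64 ± 0.18 (limma adjusted p = 4.45e-05), with -3.33 in the step across slides. Sall1 and Pax2, both kidney regulators, were at least 3.85-fold and 2.36-fold lower. Pax8, another kidney regulator, was not well above background at E12.5 and measured 2.98-fold higher at E15.5, a call lost in 4 alternatives. Its bound equals this measured change.

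Replication genes edged down. Of 24 S phase genes, 10 fell, 0 rose and 14 missed the threshold, with a median of log2 -0.62 and a median within-slide sum of -0.53. Ccne1, the cyclin of S phase entry, went from 2.93 and 2.92 to 1.20 and 1.51, a fall by log2 1.57 ± 0.21. Pold1, a polymerase subunit, Fen1, a flap nuclease, and Mcm5, of the replicative helicase, fell by log2 1.25 ± 0.19, 1.24 ± 0.28 and 0.99 ± 0.18. Of 24 genes active in G2 or mitosis, 7 fell, 0 rose and 17 missed the threshold, with a median of -0.45. Ccnb2, a mitotic cyclin, fell by log2 1.34 ± 0.21, and Top2a, Ccnb1 and Ube2c, of chromosome untangling and mitosis, by 1.55 ± 0.39, 1.26 ± 0.25 and 1.16 ± 0.25. The calls of Fen1, Top2a, Ccnb1 and Ube2c were lost without single arrays (adjusted p up to 0.127).

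Inhibitors of cyclin-dependent kinases, which stop the cycle, split. Of 7 tested 2 rose, 3 fell and 2 were not called. Cdkn1b, Cdkn1a and Cdkn1c fell by log2 2.29 ± 0.39, 1.74 ± 0.19 and 1.61 ± 0.24, with -1.70, -1.23 and -1.62 in the step across slides. Cdkn2c rose by log2 2.24 ± 0.23, 1.52 of it across slides. The median within-slide sum of the list was 0.13, against a median change of -0.97. Cdkn2b rose by log2 1.02 ± 0.24, a call lost without single arrays (adjusted p up to 0.108).

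**Figure D3:**
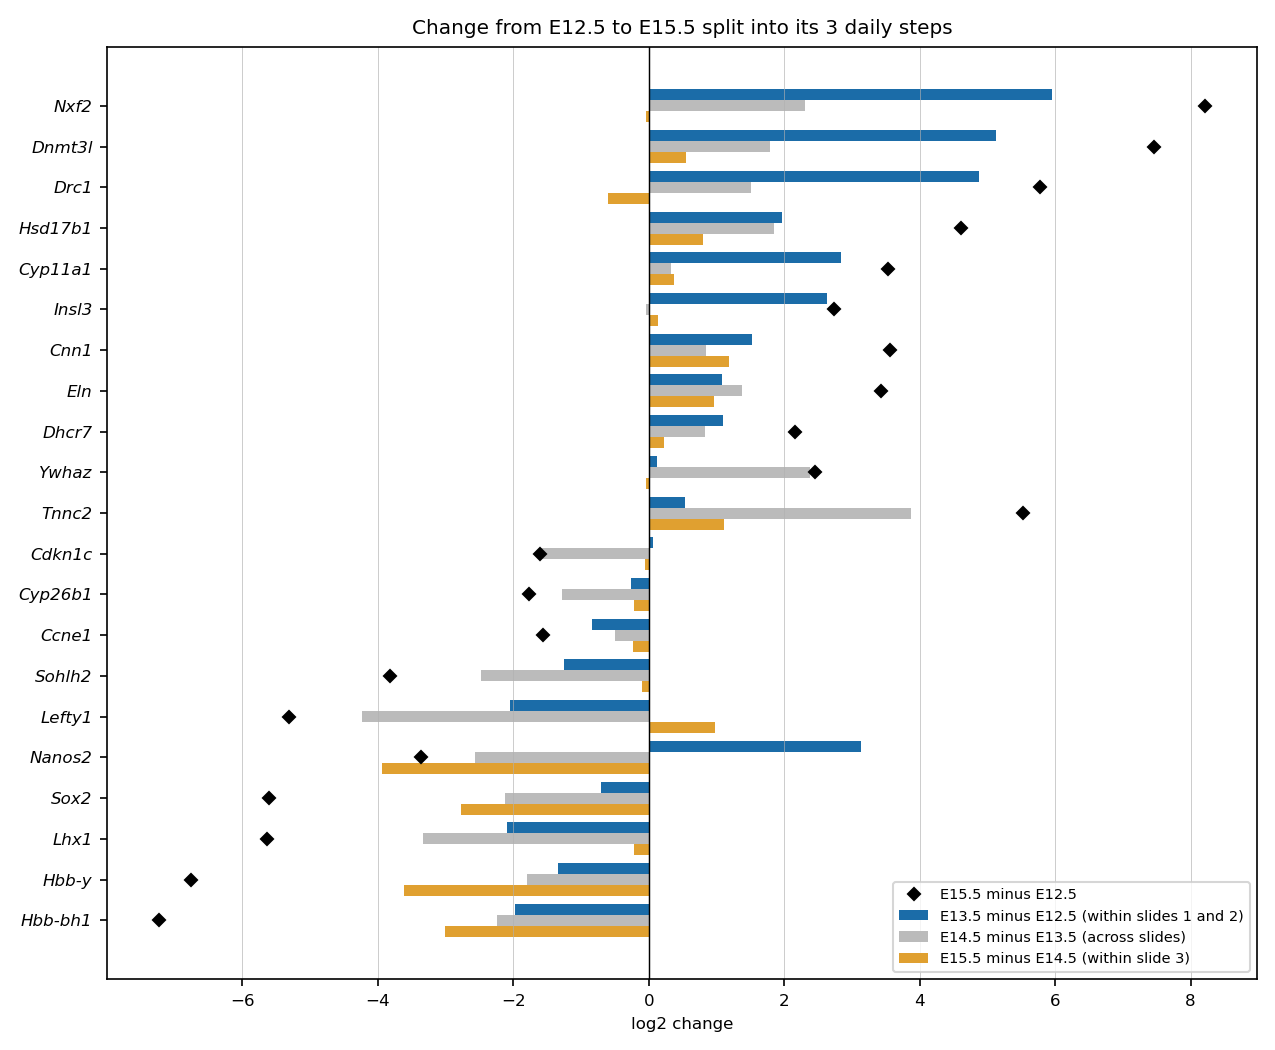
Change from E12.5 to E15.5 of 21 genes (log2, diamonds) beside its 3 daily steps (bars): 2 steps within slides and the grey step across slides. Nxf2, Cyp11a1 and Insl3 changed mostly in the first step and the globins at every step, whereas the changes of Ywhaz and Cdkn1c lie almost wholly in the grey step.

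Cilium genes and X-linked homeobox genes moved in opposite directions. Of 8 genes of motile cilia and sperm tails 6 rose, 0 fell and 2 were not called, with a median of log2 2.70 and a median within-slide sum of 1.76. Drc1, of the dynein regulatory complex, went from -2.52 and -2.48 to 3.25 and 3.31, a rise of log2 5.78 ± 0.21 (limma adjusted p = 6.04e-05). Its E14.5 mean of 3.88 lay above its E15.5 mean of 3.28, and it had no further probe. Tekt1, a tektin of the axoneme, rose by log2 4.27 ± 0.31, with 4.41 by its further probe, and Dnah11, a dynein heavy chain, by 3.48 ± 0.34. Spag6, of the central pair, was at least 3.31-fold higher, a call lost without single arrays (adjusted p up to 0.0788). All 4 tested Rhox genes, a reproductive homeobox cluster on the X chromosome, fell: Rhox9 by log2 3.75 ± 0.31, Rhox6 by 3.38 ± 0.30, Rhox2a by 2.25 ± 0.27 and Rhox5 by 2.10 ± 0.31. Rhox9 measured 2.94 and 3.05 at E12.5 and -1.02 and -0.49 at E15.5, and most of its fall, -2.77, came in the first step.

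Genes were also picked from the whole array by the size of the change among those above background on all arrays of both end stages, with in-between middle stages and all further probes agreeing, so the probe changes that follow describe the choice and test nothing. Of the 12 largest rises the RIKEN gene 4930486L24Rik led with log2 4.98 ± 0.35, from -3.40 and -3.47 to 1.32 and 1.76. Dntt, the enzyme that adds bases at joints of antigen receptor genes, rose by 4.70 ± 0.68, and its 3 probes ranged from 3.38 to 8.16. Insc, an adaptor of spindle orientation, rose by log2 4.20 ± 0.30, Ropn1l, a sperm tail protein, by 3.68 ± 0.23, and Penk, the enkephalin precursor, by 3.64 ± 0.45. The other rises beside Tekt1, Fkbp6 and Cyp11a1 were Cstdc6 (4.46), Tmc7 (4.10), Bhlhe22 (3.42) and Ggt7 (3.26).

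Among the 12 largest falls by the same rule, after Hbb-bh1 and Dppa5a, came Cited4, a transcriptional coactivator, at log2 -3.34 ± 0.24. Dicer1, the nuclease that makes microRNAs, measured 1.28 and 1.42 at E12.5 and -1.59 and -1.71 at E15.5, a fall by 2.997 ± 0.17, of which -1.87 lay across slides, and its further probe gave -1.97. Epyc, a cartilage proteoglycan, fell by log2 2.95 ± 0.25, Tspan32, a tetraspanin of blood cells, by 2.89 ± 0.19, and Dkk1, a secreted Wnt inhibitor, by 2.48 ± 0.18. The others were Rpgrip1 (-2.72), Rrp1b (-2.66), Npepps (-2.50), H4c4 (-2.46) and Zfp445 (-2.44). The histone gene H4c4 had E12.5 arrays at 2.18 and 4.32 and lost its call in 8 alternatives (adjusted p up to 0.168).

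**Figure D4:**
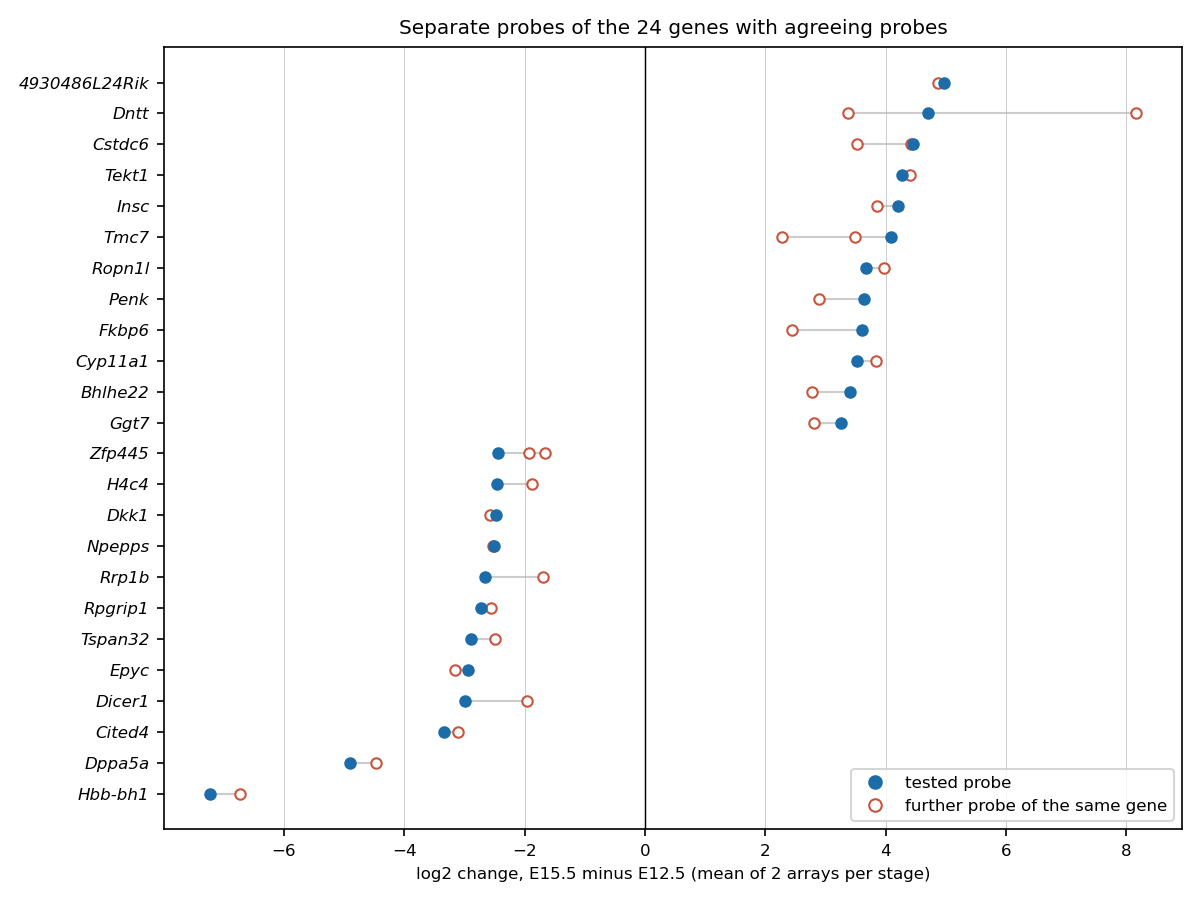
Change from E12.5 to E15.5 (log2) of the tested probe (filled) and of further probes (open) of the 24 genes chosen because their probes agree. Probes of 4930486L24Rik, Tekt1, Npepps and Dkk1 nearly coincide, whereas those of Dntt span 3.38 to 8.16.

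Some genes were below background on both arrays of 1 end stage, which gives only a bound. Largest among rises was Sly, a multicopy gene of the Y chromosome in the male germ line, at least 271-fold higher, with 7.01 of its log2 change in the step across slides. After Myh2 came the sugar transporter gene Slc5a4a, at least 62-fold, the carotenoid-cleaving enzyme gene Bco2, at least 57.6-fold, and Hsd17b2, which inactivates estradiol and testosterone, at least 56.8-fold higher. Hsd17b2 stood at means of -6.73 at E12.5 and -0.18 at E15.5, with 4.74 of its change across slides. The transcription factor gene Otx2 was at least 13.6-fold lower at E15.5, and Lalba, a milk protein gene, at least 17-fold, with -4.27 and -5.17 across slides. Npy4r, a peptide receptor, was at least 17.3-fold lower, but its E12.5 arrays stood at -3.85 and 1.16 and its call was lost in 12 alternatives (adjusted p up to 0.164).

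Largest in the within-slide sum, which leaves out the step across slides, were rises of Nxf2 (5.91 ± 0.43), Dnmt3l (5.67 ± 0.34) and Rrad (5.51 ± 0.25). Rrad, a small GTPase that damps calcium channels, measured -4.13 and -3.85 at E12.5 and 2.83 and 2.83 at E15.5, a rise of log2 6.82 ± 0.18. Its E14.5 mean of 3.22 lay above the E15.5 level, and it had no further probe. The sums were 5.20 for the interleukin gene Il22, 5.14 for the channel gene Pkd2l1 and 5.12 for Camp, which were below background at E12.5 and at least 2.58-fold, 18.2-fold and 33.9-fold higher at E15.5. Falls in the sum were led by Hbb-bh1 (-4.98), Hbb-y (-4.96), Hba-x (-3.94), Sox2 (-3.48), Rhox9 (-3.02) and the anion transporter gene Slco4c1 (-3.00), at least 2.8-fold lower at E15.5. limma's adjusted p for these sums ran from 0.00878 for Rrad to 0.049 for Camp.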

How the data were processed

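Per the file headers, the deposited scanner files hold spot intensity on a linear scale from Agilent Feature Extraction 9.1.3.1 (E12.5, E13.5) or 9.5.3.1 (E14.5, E15.5), background-subtracted and spatially detrended, and not scaled between arrays. The submitters' processing notes name 9.5. The authors' deposited table of linear ratios per stage, of unstated centring and scale, served only for directions. Spots of a probe were averaged, and log2 values were taken minus each array's 75th percentile over 43379 non-control spots. Probes well above background on both arrays of a stage (28188) were kept. RefSeq accessions matched to GRCm38.p6 gave 1 symbol to 22951 of 41174 probes (55.7%), several to 0 and none to 18223. The brightest probe stood for a gene. All 8 arrays entered 1 limma 3.58.1 model (R 4.3.3) with a mean per stage, Benjamini-Hochberg adjusted, called below 0.05, with 4 residual and 2.58 prior degrees of freedom. The number of arrays limits the precision. The within-slide sum was fitted with a slide term. A bound replaces each dim array's value by the array's lowest well-detected signal where that is higher, and is given where both arrays of the dimmer stage were dim. Genes named were the 12 largest rises and falls with agreeing probes and in-between middle stages, the 5 largest bounds each way, the 6 largest within-slide sums each way, up to 4 called members of a list plus those against its majority, and cell type markers. Some genes this rule names are not reported here. Members and lists were chosen with earlier results of these data known. Same-numbered arrays did not pair across all stages: the correlation of their deviations was -0.081 between E12.5 and E15.5, 0.646 between E12.5 and E13.5, whose same-numbered arrays share a slide, -0.589 between E14.5 and E15.5, and 0.0301 to 0.0739 for the others. Alternatives were background correction, scaling, filters, probe averaging, blocks, other moderation and leaving out arrays. Normexp used median spot signals; mean spot signals were not used here. Fits were tested on simulated data.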

Additional observations from a re-analysis of the deposited data

How the results depend on the processing

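The direction of the named changes held in all alternatives tried except for Hsd17b7 (0.31) and Maf (0.16) with a gene's probes averaged, and for Sox9, not called, which ranged from -0.539 to 0.0876 without single arrays. The cause was not tested. Of 178 called named genes 131 kept the call under every alternative but a test against a minimum change of log2 1. That test called 1682 genes and left 128 with agreeing probes and in-between middle stages, by its construction. Without single arrays, which leaves a stage with 1 array assumed to vary like the others, 3464 to 7903 genes were called, 279 to 571 had agreeing probes and in-between stages, and 0 to 242 were called by the within-slide sum. In those fits without single arrays, the agreement of further probes was still judged on all 8 arrays. Leaving out either array of E13.5, or either array of E14.5, gives the same direct test. Counts of lost calls include both such fits and so hold the same result again. The within-slide sum called 362 genes with normexp, 19 with no filter and 297 when all 8 arrays had to be above background. With the replicate number as a block, 7070 genes were called and 491 had agreeing probes and in-between stages. Of 7661 called genes, 7660 had the same direction in the authors' deposited table, and the median of all genes was -0.39. Genes below background at a stage have only a bound.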

Other observations

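Smaller lists held called genes in shares not tested against the 17.9% of all genes that rose and the 17% that fell. Of 17 interstitial progenitor genes 4 rose, 3 fell and 10 were not called. Dpt, which encodes the matrix protein dermatopontin, was below background at E12.5 (-8.32 and -8.19) and reached -2.33 and -2.07 at E15.5, at least 14.1-fold higher. Ptch1 and Hhip, both targets of Hedgehog signalling, and Maf, a transcription factor, changed by log2 -1.77 ± 0.41, -0.91 ± 0.18 and -1.10 ± 0.18. Each call was lost in at least 1 alternative (limma adjusted p up to 0.692), and the further probe of Maf had the opposite sign (1.42). Msln, which encodes the mesothelial protein mesothelin, rose by log2 4.24 ± 0.23, from -5.65 and -5.55 to -1.52 and -1.22. Of 15 imprinted genes 3 rose, 4 fell and 8 were not called, among them Phlda2, a growth restrictor, which rose by log2 2.78 ± 0.20 and had -0.05 of it in the step across slides. Rbp4, the retinol carrier, rose by log2 2.40 ± 0.24, and Tubb3, a neuronal tubulin, by 2.48 ± 0.25. Of 11 genes of the ovarian pathway and Wnt targets 1 rose, 4 fell and 6 were not called. Sp5 and Lgr5, both Wnt targets, fell by log2 2.25 ± 0.26 and 1.62 ± 0.18, and Rnf43, a Wnt target that damps the pathway, changed by 1.01 ± 0.24, a call lost in 3 alternatives (adjusted p up to 0.114).

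Of 13 common reference genes 4 rose, 1 fell and 8 were not called, beside 17.9% of all genes that rose and 17% that fell. Ywhaz, a 14-3-3 protein, rose by log2 2.45 ± 0.34, of which 2.38 lay in the step across slides, and its further probe did not agree. Pgk1, a glycolytic enzyme, fell by log2 1.19 ± 0.21.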
